A study of Mus musculus with 13 samples.

Results

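Neurofilament and axonal integrity genes are followed here as a set of 10 genes, Nefl, Nefm, Nefh, Ina, Mapt, Tubb3, Stmn2, Gap43, App and Uchl1, chosen by gene name in the deposited annotation from 55401 gene identifiers. All 10 were detected in every library, and all 10 were among the 14985 genes that passed the filter on low counts. RNA-seq was run on 13 bulk libraries of snap-frozen hemispheres of male C57BL/6J mice, given as 6 to 8 weeks old in the labels. The control group (CTL, n = 5) received normal chow for 6 weeks. The cuprizone group (CPZ, n = 4) received chow with 0.3% cuprizone, a copper chelator that damages oligodendrocytes, for 4 weeks. The recovery group (RCV, n = 4) was returned to normal chow for 2 weeks after the same 4 weeks of cuprizone. CPZ tissue was collected at week 4 and CTL and RCV tissue at week 6, so cuprizone feeding at the time of collection and the week of collection cannot be told apart. A hemisphere holds many regions and cell types, and the groups model toxic demyelination and not an immune attack on myelin.

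Neurofilaments are the intermediate filaments of neurons, built from the light (Nefl), medium (Nefm) and heavy (Nefh) subunits together with alpha-internexin (Ina), and they set the calibre of large myelinated axons. Tau (Mapt) and the neuronal beta-tubulin Tubb3 belong to the axonal microtubules, Stmn2 and Gap43 act in axon growth and repair, and App and Uchl1 encode abundant neuronal proteins. Neurofilament light in blood or cerebrospinal fluid and local build-up of APP protein in axons are used as signs of axonal injury, but both are protein measures. The libraries measured messenger RNA, which in neurons comes mostly from the cell body and not from the axon.

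Libraries held 4605100 to 8197289 estimated counts, of which the 10 genes together took 0.378% to 0.460%. Marker genes of cell types were summed for each library. Mature oligodendrocyte markers summed to 4434 to 8090 TPM (a level scaled to transcript length and library size) in CTL, 1811 to 2978 in CPZ and 5736 to 9631 in RCV. Microglia markers summed to 553 to 678, 2500 to 5480 and 948 to 1415 TPM in the same order, and neuron markers to 11025 to 12429, 10227 to 11170 and 10239 to 11939 TPM. Of 12 brainstem and hindbrain markers 1 passed the filter on low counts (Glra1), and Hoxb5 and Hoxb8 were at 0 in all 13 libraries. This list summed to 26.0 TPM in RCV 3, which stood apart, and to 3.34 to 13.7 TPM in the other 12. Of 10 cerebellar markers 7 passed, the list summed to 132 to 293 TPM, and Gabra6 and Pcp2 were at 0 in 11 of 13 libraries. The paper does not state which parts of each hemisphere went into the bulk RNA, so a whole hemisphere cannot be assumed.

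The order of the 10 genes by mean TPM was the same in CTL, CPZ and RCV. App was highest, at 973 ± 53.3 TPM in CTL (SD, n = 5), 866 ± 9.93 in CPZ and 928 ± 46.6 in RCV (SD, n = 4 each). Uchl1 followed at 908 ± 108 TPM in CTL, 779 ± 54.9 in CPZ and 888 ± 70.3 in RCV, and its libraries overlapped those of App in all 3 groups. A wide step separated these from Tubb3 (367 ± 37.3 TPM in CTL), Stmn2 (323 ± 27.9), Gap43 (321 ± 69.6), Mapt (294 ± 16.5) and Nefl (257 ± 26.5), each of which overlapped its neighbour in that order in CTL. Nefm (174 ± 21.1 TPM in CTL), Ina (139 ± 19.6) and Nefh (58.6 ± 20.0) came last. The steps from Uchl1 to Tubb3, from Nefl to Nefm and from Ina to Nefh were free of overlap in every group, the step from Nefm to Ina in CPZ and RCV, and the step from Stmn2 to Gap43 in CPZ.

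Between CPZ and CTL, 1 of the 10 genes passed the test. Mapt fell, against 2.5% of all genes tested that were called lower, 7.66% called higher and 10.2% in either direction. The call used edgeR's quasi-likelihood test with a Benjamini-Hochberg adjusted p below 0.05 over all 14985 genes. All 10 estimates lay below 0, as did those of 54.6% of all genes, from -0.32 to -0.0017 with a median of -0.13 on the log2 scale, beside a median of -0.02 over all genes. With neuron marker scaling, which moved the median of all genes by 0.12, 7 of the 10 were below 0, and Nefh lay just above 0 with total counts, upper quartiles and DESeq2 size factors as well. An unadjusted p below 0.05 was reached by 4 genes (Mapt, App, Uchl1 and Gap43), against 22.1% of all genes. Expression values below are CPM, counts scaled to library size with TMM factors, and fold changes are log2 values of the first group named over the second with their standard error (SE).

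**Figure D1:**
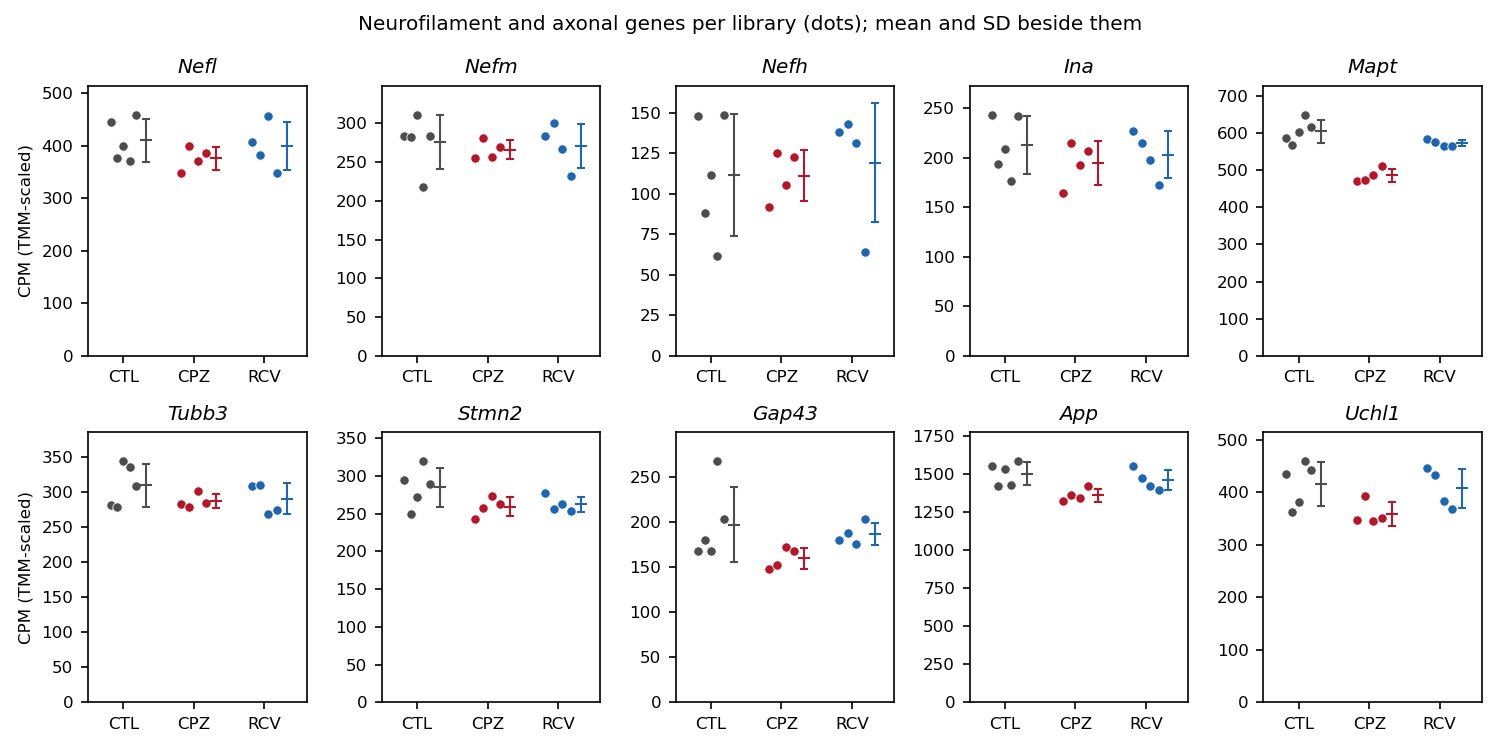
CPM of each gene (vertical axis, starting at 0) in the CTL, CPZ and RCV libraries (dots), with the group mean and SD beside the dots. The 4 CPZ libraries of Mapt, between 472 and 511 CPM, sit below every CTL and RCV library, while the Nefh libraries spread from 61.8 to 149 CPM within CTL alone.

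Mapt encodes tau, which binds and stabilises axonal microtubules, and lies on the plus strand at chr11:104231390-104332090 (GRCm38). Mapt was at 586, 567, 602, 648 and 615 CPM in CTL 1 to 5, at 472, 473, 486 and 511 CPM in CPZ 1 to 4, and at 584, 575, 566 and 566 CPM in RCV 1 to 4. All 4 CPZ libraries were lower than all 9 others, and the RCV libraries lay within or just under the range of CTL. Mapt was the single gene of the 10 without overlap between CPZ and CTL, and among all genes 4.86% had all CPZ libraries below CTL and 8.25% all above. The mean in CPZ was 80.4% of CTL (95% interval 74.5% to 86.7%), a fall of Mapt by 0.32 on the log2 scale (SE 0.05, adjusted p = 0.00053). In a hemisphere, fewer cells that express a gene and less RNA per cell cannot be told apart. When libraries were scaled on the neuron marker genes instead of all genes, the Mapt estimate was -0.20 with an adjusted p = 0.0631, so the call was lost. Mature oligodendrocytes express Mapt too, and all 14 of their markers were called lower in CPZ than in CTL. Within CTL, the library with the lowest oligodendrocyte marker sum (CTL 4, 4434 TPM) had the highest Mapt value. Within CPZ, the library with the highest sum (CPZ 4, 2978 TPM) had the highest Mapt value. In RCV, Mapt was higher in RCV 1 and RCV 2, which had higher sums than RCV 3 and RCV 4. Over the 13 libraries the within-group deviations of Mapt and of the oligodendrocyte list had a correlation of r = -0.06. The part of oligodendrocytes in the difference between groups was not tested.

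Mapt was also the single gene of the 10 called between CPZ and RCV, where 1.88% of all genes were called lower, 5.13% higher and 7.01% in either direction. Its mean in CPZ was 84.7% of RCV (95% interval 78.2% to 91.8%), a fall of Mapt by 0.24 on the log2 scale (SE 0.05, adjusted p = 0.0127). Without RCV 3, the library with the most brainstem marker RNA, the estimate was -0.25 (adjusted p = 0.0288). The call was lost without CPZ 1 (-0.22, adjusted p = 0.0654) and without CPZ 2 (-0.23, adjusted p = 0.0521), with neuron marker scaling (-0.17, adjusted p = 0.211) and without the filter on low counts (-0.21, adjusted p = 0.0679). Between RCV and CTL, Mapt was at 94.8% (95% interval 87.9% to 102%, log2 -0.08, SE 0.05, adjusted p = 0.940). The CTL libraries serve both comparisons with CTL, and the CPZ libraries both comparisons with CPZ.

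Tubb3, a beta-tubulin largely restricted to neurons (chr8:123411424-123422015, plus strand), was at 281, 279, 344, 336 and 308 CPM in CTL 1 to 5, at 283, 278, 302 and 285 CPM in CPZ 1 to 4, and at 309, 311, 269 and 274 CPM in RCV 1 to 4. The 3 groups overlapped, with the highest values in CTL and the lowest in RCV. CPZ was at 92.7% of CTL for Tubb3 (95% interval 83.3% to 103%, log2 -0.11, SE 0.07, adjusted p = 0.437). The ratio of Mapt to Tubb3 in TPM averaged 0.804 ± 0.0571 in CTL (SD, n = 5), 0.71 ± 0.0549 in CPZ and 0.816 ± 0.0650 in RCV (SD, n = 4 each), and it overlapped between CPZ (0.638 to 0.771) and both CTL (0.718 to 0.863) and RCV (0.761 to 0.903).

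The neurofilament subunits gave no call in any comparison. Nefl, the light subunit and backbone of the filament (chr14:68083863-68089095, plus strand), was at 446, 376, 400.2, 370.0 and 459 CPM in CTL 1 to 5, at 348, 400.0, 370.0 and 386 CPM in CPZ 1 to 4, and at 408, 382, 457 and 349 CPM in RCV 1 to 4. The groups of Nefl overlapped throughout, and its 3 highest values came from CTL 1, CTL 5 and RCV 3. CPZ was at 91.7% of CTL for Nefl (95% interval 81.1% to 104%, log2 -0.12, SE 0.08, adjusted p = 0.441). Nefm, the medium subunit (chr14:68082590-68124846, minus strand), was at 284, 283, 311, 218 and 283 CPM in CTL, at 256, 281, 257 and 269.9 CPM in CPZ, and at 283, 300.3, 267 and 232 CPM in RCV. Its lowest values came from CTL 4 and RCV 4 and not from a CPZ library. For Nefm, CPZ was at 96.5% of CTL (95% interval 84.4% to 110%, log2 -0.05, SE 0.09, adjusted p = 0.814). In the annotation, Nefl lies within the span of Nefm on the opposite strand, and 1108 of its 3380 exonic bases are shared with Nefm. There, reads of the 2 genes cannot be told apart unless counting used strand, which the sources do not give.

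Nefh, the heavy subunit with the long phosphorylated tail found in large-calibre axons (chr11:4938754-4948064, minus strand), was at 148, 88.1, 112, 61.8 and 149 CPM in CTL 1 to 5, at 91.6, 125, 106 and 123 CPM in CPZ 1 to 4, and at 138, 143, 131 and 64.4 CPM in RCV 1 to 4. Both the highest and the lowest Nefh values belonged to CTL, and all 4 CPZ libraries lay inside the CTL range. The estimate for CPZ over CTL was 99.9% with a 95% interval from 65.2% to 153% (log2 -0.0017, SE 0.28, adjusted p = 0.998), the widest interval of the 10 genes. Ina, the alpha-internexin that joins the neurofilament of central axons (chr19:47014698-47025327, plus strand), was at 243, 194, 209, 177 and 242 CPM in CTL, at 164, 215, 193 and 207 CPM in CPZ, and at 227, 215, 198 and 172 CPM in RCV. These groups overlapped as well, with CPZ 1 the lowest library of all. CPZ was at 91.5% of CTL for Ina (95% interval 77.9% to 107%, log2 -0.13, SE 0.11, adjusted p = 0.566). Ina shares 456 exonic bases with Nt5c2 on the opposite strand.

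The proportions between the subunits varied little between group means. Nefm stood at 0.682 ± 0.0856 of Nefl in TPM in CTL (SD, n = 5), 0.717 ± 0.0190 in CPZ and 0.691 ± 0.0845 in RCV (SD, n = 4 each). Ina stood at 0.542 ± 0.0264, 0.540 ± 0.0325 and 0.536 ± 0.0635 of Nefl in the same order. The ratio of Nefh to Nefl was 0.224 ± 0.0574 in CTL, 0.247 ± 0.0213 in CPZ and 0.249 ± 0.0692 in RCV. For each of the 3 ratios the distance between group means was smaller than the SD within CTL.

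Among the genes of axon growth, Gap43, a growth cone protein that stays high in plastic circuits (chr16:42248442-42340651, minus strand), was at 168, 179, 168, 267 and 203 CPM in CTL 1 to 5, at 148, 152, 172 and 167 CPM in CPZ 1 to 4, and at 180.5, 187, 175 and 203 CPM in RCV 1 to 4. The CPZ libraries of Gap43 overlapped the 2 lowest CTL libraries but lay under all RCV libraries, and CTL 4 stood far above the rest. Gap43 in CPZ was at 81.1% of CTL (95% interval 68.1% to 96.7%, log2 -0.30, SE 0.12, unadjusted p = 0.0230, adjusted p = 0.139). Without CTL 4 the estimate was -0.17 (adjusted p = 0.214). Against RCV the CPZ mean of Gap43 was at 85.7% (95% interval 71.2% to 103%, log2 -0.22, SE 0.12, adjusted p = 0.364). Gap43 and Mapt were the 2 genes of the 10 with all CPZ libraries below all RCV libraries, a pattern found in 4.93% of all genes, beside 8.26% with all CPZ libraries above.

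Stmn2, a tubulin-binding protein needed for axon regrowth (chr3:8509360-8561606, plus strand), was at 295, 249, 272, 319 and 289 CPM in CTL, at 242, 258, 273 and 263 CPM in CPZ, and at 277, 257, 263 and 253 CPM in RCV. CPZ and RCV covered nearly the same range, and both overlapped the lower CTL libraries. Stmn2 in CPZ was at 91.0% of CTL (95% interval 82.5% to 100.5%, log2 -0.14, SE 0.07, adjusted p = 0.255) and in RCV at 92.1% of CTL (95% interval 83.4% to 102%, log2 -0.12, SE 0.07, adjusted p = 0.879). The ratio of Gap43 to Stmn2 in TPM was 0.997 ± 0.200 in CTL (SD, n = 5), 0.832 ± 0.0582 in CPZ and 0.978 ± 0.177 in RCV (SD, n = 4 each), with overlap between all groups.

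App, the amyloid precursor protein carried along axons by fast transport (chr16:84949685-85173766, minus strand), was at 1552, 1418, 1533, 1427 and 1582 CPM in CTL 1 to 5, at 1322, 1358, 1339 and 1419.9 CPM in CPZ 1 to 4, and at 1549, 1475, 1422 and 1394 CPM in RCV 1 to 4. The CPZ libraries were the lowest apart from CPZ 4, which lay above CTL 2 and RCV 4. App in CPZ was at 90.5% of CTL (95% interval 83.5% to 98.1%, log2 -0.14, SE 0.05, unadjusted p = 0.0186, adjusted p = 0.120) and missed the threshold. DESeq2's Wald test called it (-0.14, adjusted p = 0.0330). Uchl1, an abundant neuronal deubiquitinase (chr5:66676091-66687234, plus strand), was at 435, 362, 381, 459 and 443 CPM in CTL, at 347, 394, 346 and 351 CPM in CPZ, and at 445, 433, 384 and 369 CPM in RCV. All CPZ libraries except CPZ 2 lay below every CTL and RCV library of Uchl1. Its mean in CPZ was at 86.4% of CTL (95% interval 76.8% to 97.3%, log2 -0.21, SE 0.08, unadjusted p = 0.0188, adjusted p = 0.120) and at 88.2% of RCV (95% interval 77.8% to 99.8%, log2 -0.18, SE 0.08, unadjusted p = 0.0473, adjusted p = 0.255). App shares 113 exonic bases with Gm49227 and Uchl1 295 with Uchl1os, both antisense, and neither partner had more than 3 counts in a library.

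**Figure D2:**
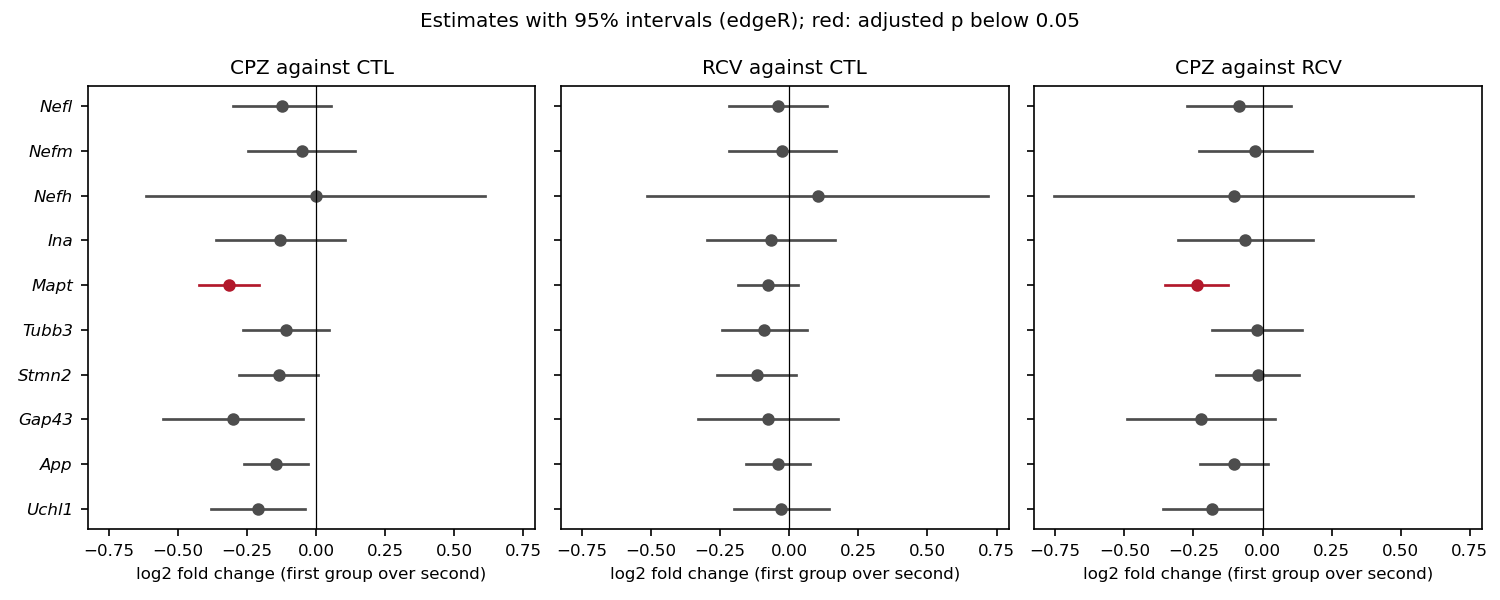
Log2 fold changes (horizontal axis, first group over second) with 95% intervals for the 10 genes in the 3 comparisons, with red for an adjusted p below 0.05. Mapt is the single red gene, at -0.32 for CPZ against CTL and -0.24 for CPZ against RCV, and Nefh has the widest interval, from -0.62 to 0.61 for CPZ against CTL.

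Between RCV and CTL none of the 10 genes passed edgeR's quasi-likelihood test at a Benjamini-Hochberg adjusted p below 0.05, where 0.374% of all genes did (0.36% higher and 0.0133% lower), and 0 of 10 reached an unadjusted p below 0.05, where 6.2% of all genes did. DESeq2 and limma also called 0 of the 10. The RCV and CTL libraries overlapped for all 10 genes, while 0.687% of all genes had all RCV libraries below CTL and 2.21% all above. The estimates ran from -0.12 for Stmn2 to 0.10 for Nefh, with 9 of 10 below 0 (51.4% of all genes, and 5 of 10 with neuron marker scaling) and a median of -0.05. The other 8 stood between -0.09 for Tubb3 and -0.03, and each had an interval that included 0. Between CPZ and RCV all 10 estimates were below 0 (51.5% of all genes, with 6 of 10 under neuron marker scaling and 7 of 10 under total counts), with a median of -0.09 beside -0.01 over all genes, and 2 of 10, Mapt and Uchl1, had an unadjusted p below 0.05 (19.1% of all genes).

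Among libraries of the same group, 2 sets of genes could be seen, and both were picked from these values. Deviations of log2-CPM from the group mean over the 13 libraries correlated at r = 0.92 between Nefh and Ina, 0.83 between Nefl and Nefh, 0.81 between Nefm and Nefh, 0.86 between Ina and App and 0.80 between Nefh and App, and all 10 pairs of these 5 genes lay between 0.47 (Nefl and Nefm) and 0.92. A second set was formed by Mapt with Stmn2 (r = 0.76) and Gap43 (r = 0.73). The 15 pairs between the sets ran from -0.79 for Nefm and Gap43 to 0.30 for Stmn2 and App, with 8 negative and 7 positive. These values describe 13 libraries that share their scaling and their dissection, and carry no test.

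Ina and App are the members of the first set for which RefSeq (GRCm38.p6) gave a promoter here, and the 250 bases upstream of their RefSeq starts are shown because the genes varied together between libraries. Capitals mark GGGCGG, the core of the GC box, on either strand. Promoters of Tubb3 and Uchl1 were also matched, so 4 of 10 genes were examined.
Ina, chr19:47014431-47014680, plus strand: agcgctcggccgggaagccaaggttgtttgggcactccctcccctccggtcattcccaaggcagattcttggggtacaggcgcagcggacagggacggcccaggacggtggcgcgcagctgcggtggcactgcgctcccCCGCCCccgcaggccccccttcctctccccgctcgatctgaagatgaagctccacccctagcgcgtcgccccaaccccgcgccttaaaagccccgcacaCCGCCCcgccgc
App, chr16:85173708-85173957, minus strand: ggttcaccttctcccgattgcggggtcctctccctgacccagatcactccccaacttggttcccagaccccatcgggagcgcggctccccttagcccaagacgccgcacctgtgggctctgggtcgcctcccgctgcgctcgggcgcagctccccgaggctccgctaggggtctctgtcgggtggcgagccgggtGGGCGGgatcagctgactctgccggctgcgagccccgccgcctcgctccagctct
The Ina window held 2 such matches, the App window 1, Tubb3 2 and Uchl1 0, and 32.7% of 32851 promoter windows of this length held at least 1. The Ina and App windows had a GC content of 70.8%, beside a median of 52.4% over all windows. Tubb3 and Uchl1, which are outside the first set, were at 68.0% and 48.8%. A link between these sequences and the shared variation was not tested. TATAAA, present in 12.4% of all windows, was found in none of the 4, and CCAAT, present in 33.8%, in Tubb3 alone. Both of these motifs were searched on both strands as well.

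The first set varied with thalamic marker genes and, to unequal degrees, with hippocampal and mature oligodendrocyte markers. Thalamic marker genes summed to 594, 149, 284, 120 and 559 TPM in CTL 1 to 5, to 263, 523, 277 and 280 TPM in CPZ 1 to 4, and to 669, 455, 206 and 108 TPM in RCV 1 to 4. CTL 4 and RCV 4 were the lowest libraries in these markers and in Nefh and Nefm. Over the 13 libraries the within-group deviations of the thalamus list correlated at r = 0.91 with Nefh, 0.89 with Ina, 0.86 with App, 0.75 with Nefm and 0.65 with Nefl. Outside the set, r with the thalamus list was 0.54 for Uchl1, 0.15 for Stmn2, 0.14 for Tubb3, -0.07 for Mapt and -0.51 for Gap43. With the mature oligodendrocyte list, which fell in CPZ and whose part in these values was not tested, r was 0.79 for Nefm, 0.62 for App, 0.61 for Nefh, 0.55 for Ina and 0.19 for Nefl. With the hippocampus list, r was 0.90 for Nefl, above its thalamus value, 0.72 for Nefh, 0.63 for Ina, 0.445 for App and 0.35 for Nefm. Tubb3 was closer to the cerebellum list (r = 0.82). In the cerebellum list, Gabra6 and Pcp2 were at 0 in 11 of 13 libraries, so its values came from its other genes and need not reflect cerebellar tissue. Striatal markers summed to 204 to 2545 TPM over the 13 libraries, and r was -0.70 with Nefl and -0.63 with Stmn2. Of the 9 thalamic genes 0 were called by edgeR or DESeq2 in any comparison, and 0 had an unadjusted p below 0.05 by edgeR.

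With the thalamus list as a covariate, an alternative chosen after these values were seen, the SE of Nefh for CPZ against CTL was 0.12 in place of 0.28 and the estimate -0.06 (adjusted p = 0.837). Mapt stayed called at -0.31 (adjusted p = 0.00079). App was then called as well, at -0.16 (adjusted p = 0.0446), and Uchl1 stood at -0.23 (adjusted p = 0.0596).

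**Figure D3:**
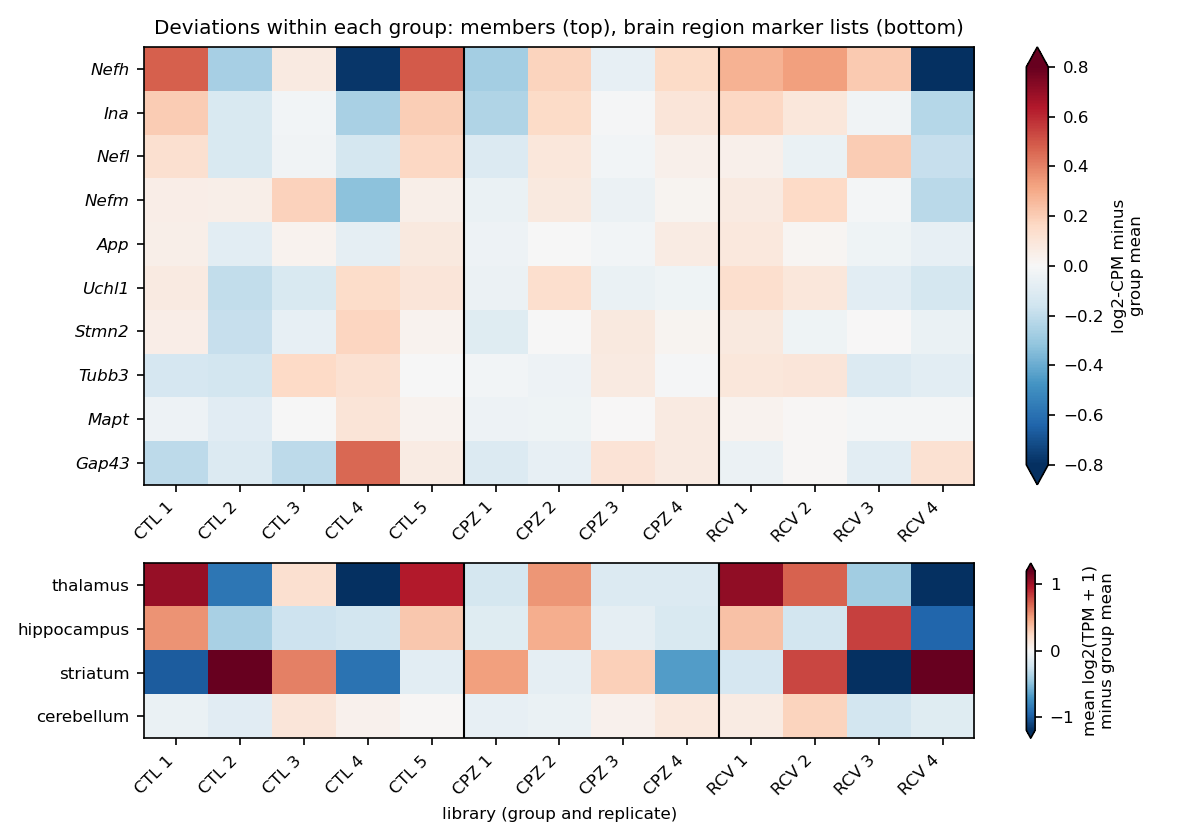
Deviation of each library (columns) from its group mean for the 10 genes (top, log2-CPM) and for 4 brain region marker lists (bottom, mean of log2(TPM + 1)). Red is above and blue below the group mean, and CTL 4 and RCV 4 are blue in Nefh, Ina, Nefl and Nefm and in the thalamus row.

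The genes whose deviations followed each member most closely were searched among 11091 genes over the 13 libraries. For Nefh they were Plekhd1 (r = 0.98), Tanc1 (0.97) and Prox1 (0.96), the last a marker in the hippocampus list. For Nefl they were Vamp1 (0.95), a synaptic vesicle protein of fast-firing neurons, Sh3bp5 (0.95) and Kcnab2 (0.94), a potassium channel subunit. Nefm was closest to Adamts1, Igf1r and Efhd1 (0.93 each), and Ina to Bok (0.96), Nrip3 (0.95) and Fryl (0.95). Mapt was closest to Stmn3 (0.94), a relative of Stmn2, then to Eri3 (0.89) and Gpr45 (0.87). Tubb3 was nearest to another beta-tubulin, Tubb4b (0.92), then Cbln1 and Wbp1 (0.90 each). For Stmn2 they were Abhd8 (0.91), Dcakd (0.90) and Tbc1d22b (0.90), and for Gap43 Usp11 (0.97), Zc3h3 (0.95) and Cdh22 (0.93). App was closest to Pigq (0.91), the nicotinic receptor subunit Chrna4 (0.90) and Nrip3 (0.90), and Uchl1 to Acp2 (0.92), Parvb (0.92) and Tmem163 (0.91).

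Among other cytoskeletal genes, filaments of astrocytes rose and several microtubule genes fell. Of 6 other intermediate filament genes, 5 were tested, and between CPZ and CTL Gfap (log2 2.43, SE 0.15), Vim (2.09, SE 0.15) and Nes (0.89, SE 0.14) rose and Synm fell (-0.40, SE 0.09). Gfap and Vim are filaments of reactive astrocytes. Astrocyte markers summed to 2046 to 2438 TPM in CTL and 2868 to 3411 in CPZ. That list includes Gfap and Vim, so its rise is not separate from theirs. Peripherin (Prph), a filament partner of Nefl in some neurons, had at most 12 counts in a library and was not tested. Of 21 microtubule genes, 1 rose and 5 fell with a median of -0.13. Tppp (-0.42), an oligodendrocyte-rich tubulin polymerisation protein, and the stathmins Stmn4 (-0.42) and Stmn1 (-0.28) fell, and the tubulin Tubb2b rose (0.37). Of 18 axonal transport genes, 2 fell, the kinesin cargo scaffolds Mapk8ip1 (-0.32) and Mapk8ip3 (-0.19), with a median of -0.13, while DESeq2 called 6 of the 18 lower. Over all 14985 genes tested, edgeR called 7.66% higher, 2.5% lower and 10.2% in either direction, and DESeq2 called 474 lower. An unadjusted p below 0.05 by edgeR was reached by 4 of the 5 filament, 11 of the 21 microtubule and 9 of the 18 transport genes. The share over all genes was 22.1%.

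Of 17 genes of axon degeneration, edgeR called 1 higher and 1 lower, beside 7.66% and 2.5% of all genes. An unadjusted p below 0.05 by edgeR was reached by 3 of the 17, beside 22.1% of all genes. Calpastatin (Cast), the inhibitor of calpains, rose (0.41) and Map3k12, the injury-sensing kinase DLK, fell (-0.20). Of 19 growth and injury genes, 18 were tested and 5 rose while none fell, led by Atf3, Cd44 (2.48), Gadd45a (1.42) and Tnfrsf12a (0.90), and the median was 0.0029. Atf3, a stress-induced transcription factor, had 1 to 4 counts in the CTL libraries (11 summed), 40 to 89 in CPZ and 7 to 17 in RCV. Its fitted value of 4.62 therefore rests on few counts in CTL. Glia can also express Cd44 and Atf3. In APP processing, 3 of 19 genes rose and 2 fell, with a median of -0.01. The App paralogue Aplp1 (-0.44) fell, while the alpha-secretases Adam17 (0.66) and Adam10 (0.29) and the APP-binding protein gene Itm2b (0.28) rose. Of 18 tau kinases and phosphatases 0 were called by edgeR (4 at an unadjusted p below 0.05) and 2 were called lower by DESeq2. Their median was -0.12. Of 12 ubiquitin genes tested the ubiquitin fusion gene Rps27a rose (0.24), with a median of -0.06, and DESeq2 called 2 higher. Of all 14985 genes, DESeq2 called 1654 in either direction and 474 lower. Of 16 neuron markers Eno2 fell (-0.20) and none rose, and their median was -0.13, the same as that of the 10 members. An unadjusted p below 0.05 by edgeR was reached by 6 of these 16. The same held for 8 of 18 growth and injury, 8 of 19 APP processing and 3 of 12 ubiquitin genes.

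**Figure D4:**
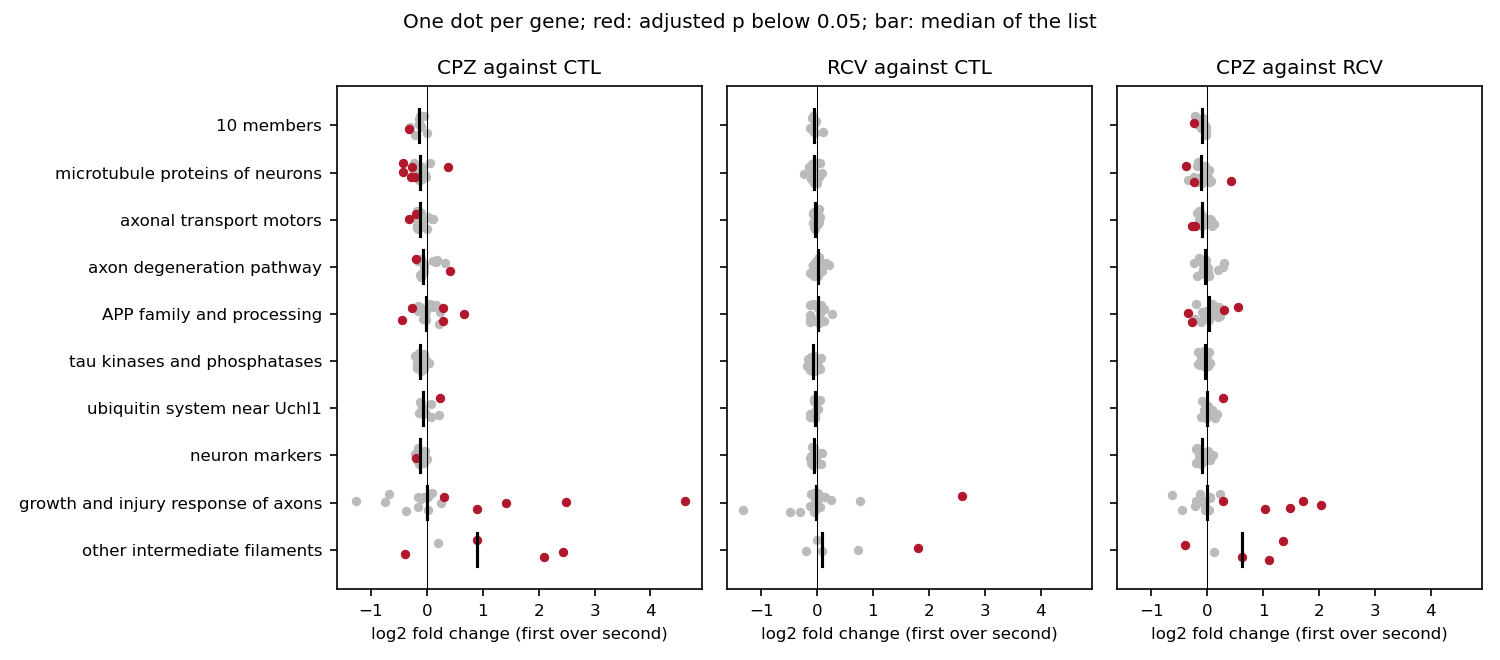
Log2 fold change (horizontal axis) of every tested gene in the 10 members and in 9 further gene lists, 1 dot per gene, for the 3 comparisons, with red for an adjusted p below 0.05 and a bar at the median. The medians of the members, microtubule genes, transport genes and neuron markers all round to -0.13 for CPZ against CTL, and large rises are seen in the intermediate filament and growth lists.

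In RCV against CTL, edgeR called 2 genes of these 8 pathway lists, Gfap (1.80, SE 0.15) and Atf3 (2.59, SE 0.45), beside 0.374% of all genes. DESeq2 called 2 filament genes and 1 growth gene higher, beside 131 of all 14985 genes in either direction. Between CPZ and RCV the called filament genes were Vim (1.35), Nes (1.10), Gfap (0.63) and Synm (-0.39). Tubb2b (0.43), Tppp (-0.37) and Map1a (-0.24) were called among 21 microtubule genes, and Mapk8ip1 (-0.27) and Kif1b (-0.22), a kinesin of synaptic vesicle and mitochondrial transport, among 18 transport genes. Of the growth and injury genes 5 were higher in CPZ, led by Atf3 (2.03), Cd44 (1.72), Gadd45a (1.47) and Tnfrsf12a (1.03). Adam17 (0.55), Adam10 (0.31), Aplp1 (-0.34) and the beta-secretase Bace1 (-0.27) were called in APP processing and Rps27a (0.28) in the ubiquitin list. No gene of axon degeneration and none of the tau kinases and phosphatases was called by edgeR, where 2 of 17 and 0 of 18 had an unadjusted p below 0.05, or by DESeq2. In the other lists, an unadjusted p below 0.05 was reached by 4 of 5 filament, 7 of 21 microtubule and 6 of 18 transport genes. The same held for 7 of 18 growth and injury, 8 of 19 APP processing, 3 of 12 ubiquitin and 5 of 16 neuron marker genes. Over all genes, edgeR called 7.01% between CPZ and RCV, and 19.1% had an unadjusted p below 0.05.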

How the data were processed

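The authors deposited unscaled estimated counts, TPM values and an annotation. The submitters' processing notes name STAR, RSEM and mm10, the paper names RNASequest, and no source used here gives their versions or the strand setting. Some estimated counts were not whole and all were rounded. The 92 spike-in identifiers held 0 counts and were left out. Groups came from the labels, in which RCV titles carry "Veh". The labels name no mouse for each library, so p values measure the spread between these libraries. The paper's methods list fewer mice for the sequencing studies than there are libraries, while a figure legend gives the same number of bulk samples. Whether each library came from a separate mouse is therefore not settled. Libraries of a group differed by a chi-square per gene of 4.45 to 17.0 over 22 pairs.

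Genes were filtered by filterByExpr, normalised with TMM factors and compared by edgeR 4.0.16 with its robust quasi-likelihood test in R 4.3.3, in one fit of 13 libraries with 3 contrasts and no covariate. Benjamini-Hochberg adjustment covered 14985 genes, with a threshold of 0.05, and intervals are 95%. Log2-CPM used a prior count of 2. TPM compares levels between genes. The script was tested on simulated counts. The 10 members, the 8 pathway lists and the 12 cell type and region lists were chosen with earlier results of these data known. Named were all members, at most 4 called genes per pathway list and contrast by size of fold change, and the 3 genes closest to each member among genes averaging at least 3 in log2-CPM. Prph, Eno2, and the genes of other lists named for a count of 5 or fewer, were chosen after their values were seen. Alternatives were DESeq2 1.42.0, limma 3.58.1 on counts and on log2(TPM + 1) or log2(TPM + 0.1), other scalings, no filter, only the compared groups, a replicate block and each library left out. Positions are from GENCODE M21 (GRCm38), which matched 98.1% of identifiers, and promoters from RefSeq GRCm38.p6.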

Additional observations from a re-analysis of the deposited data

Results flagged for a closer look

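Of 30 sets of CPM values, 1 for each gene and group, 2 held a library set apart from the others by a gap above Dixon's 95% critical share of the range, and chance alone gives about 1 in 20. Nefh in RCV 4 was at 64.4 CPM, with the nearest RCV library at 131 CPM, a gap of 0.85 of the range. RCV 4 also had the lowest thalamic marker sum of the 13 libraries (108 TPM), and the part of tissue makeup in the gap was not tested. Uchl1 in CPZ 2 was at 394 CPM, with the nearest CPZ library at 351 CPM, a gap of 0.90 of the range. Without CPZ 2 the estimate of Uchl1 for CPZ against CTL was -0.26 (edgeR's quasi-likelihood test, Benjamini-Hochberg adjusted p = 0.0985).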

How the results depend on the processing

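Mapt stayed below CTL and below RCV in CPZ under every alternative run, between -0.34 and -0.20 and between -0.26 and -0.17. In CPZ against CTL, DESeq2 and the thalamus covariate called 2 of the 10 genes and neuron marker scaling 0, and each library left out in turn called 1. In CPZ against RCV, neuron marker scaling and no filter called 0, and leaving out single libraries gave 0 to 1. Neuron marker scaling moved the median of all genes by 0.12 for CPZ against CTL and the share of lower genes among those called from 24.6% to 8.25%, and for CPZ against RCV from 26.8% to 11.9%. The cause was not tested.

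Signs turned among values that were not called. For Nefh in CPZ against CTL, the values were 0.0634 by limma-voom, 0.0276 on log2(TPM + 1), 0.0293 on log2(TPM + 0.1), 0.0010 with DESeq2 size factors, 0.0151 with total counts, 0.0075 with upper quartiles, 0.124 with neuron markers, 0.0183 without a filter, 0.0164 with only the compared groups and 0.197 with the replicate block, and -0.154 to 0.126 over libraries left out. Neuron marker scaling gave 0.067 for Nefm and 0.0096 for Tubb3 in CPZ against CTL, 0.0064 for Nefl, 0.0242 for Nefm, 0.0056 for App and 0.0208 for Uchl1 in RCV against CTL, and 0.0427 for Nefm, 0.0064 for Ina, 0.0539 for Tubb3 and 0.058 for Stmn2 in CPZ against RCV. Total counts gave 0.0083 for Nefm, 0.0162 for Tubb3 and 0.0175 for Stmn2 in CPZ against RCV, and no filter 0.0017, 0.0093 and 0.0111. Without CTL 4 and RCV 4, chosen after their values were seen, RCV against CTL gave 0.0128 for Gap43 and 0.0521 for Uchl1. Over libraries left out, RCV against CTL ranged from -0.111 to 0.0137 for Nefl, -0.0991 to 0.0354 for Nefm, -0.0492 to 0.298 for Nefh, -0.131 to 0.0569 for Gap43 and -0.0742 to 0.0113 for Uchl1, and CPZ against RCV from -0.083 to 0.0263 for Nefm, -0.124 to 0.0201 for Ina, -0.0545 to 0.0137 for Tubb3 and -0.0346 to 0.0228 for Stmn2. In all, 47 of 650 values for single genes turned sign and 596 kept their sign and their side of the threshold.

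Within-group deviations of libraries with the same replicate number correlated at r from -0.25 to 0.30 over 12 pairs. The 3 values above 0.1 were all between RCV and CTL libraries. These correlations cannot decide whether the numbers mark a shared batch, since differences in dissection also enter them. The replicate block kept the calls of Mapt (-0.31, adjusted p = 0.0071, and -0.24, adjusted p = 0.0410, by edgeR) and turned Nefl in RCV against CTL to 0.0007. Genes called in RCV against CTL numbered 56, but 131 by DESeq2, 16 by limma-voom, 11 without CTL 4 and RCV 4 and 21 to 54 over libraries left out. In CPZ against RCV they numbered 1050, but 634 on log2(TPM + 1), 554 on log2(TPM + 0.1) and 632 to 1092 over libraries left out, with the lowest counts without CPZ 1 (632) and CPZ 2 (693). The spread of Nefh and the 4 or 5 libraries a group limit what small changes can be seen.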

Other observations

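Lists of other cells and regions gave these values for CPZ against CTL. The list picked for long projection neurons had a median log2 fold change of -0.01 over 13 genes. Of these Spp1 alone was called (3.77), a gene that microglia also express. Within groups, this list had r = 0.02 with Nefl, 0.66 with Nefm, 0.39 with Nefh and 0.30 with Ina. Whether its median follows neurofilament-rich cells was not tested. Of 14 microglia markers 14 rose, and of 12 astrocyte markers 7 rose, Gfap and Vim among them. All 14 of 14 mature oligodendrocyte markers fell. Of all genes, edgeR called 7.66% higher and 2.5% lower, and 22.1% had an unadjusted p below 0.05. Of 9 oligodendrocyte precursor markers 2 rose, with a median of 0.09. By edgeR's adjusted test 0 of 10 endothelial markers were called (2 at an unadjusted p below 0.05, median -0.18), and likewise 0 of 7 cerebellar (1), 0 of 9 thalamic (0), 0 of 9 striatal (0), 0 of 7 hippocampal (1) and 0 of 1 brainstem genes tested (0). DESeq2 called 1 of the 7 hippocampal genes lower and 0 in the other 5 of these lists, beside 474 of 14985 genes called lower.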
